A study of Mus musculus with 9 samples.

Results

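The comparison described here sets mouse embryonic stem (ES) cells that lack Nanog and carry added Esrrb against ES cells that lack Nanog alone. It takes 6 of the 9 samples of the series, 3 libraries of the Esrrb line (titled NanogKO:Esrrb, 44J, with the genotype label N{delta}:cE:iN) and 3 libraries of the Nanog-null line (titled NanogKO, 44C6, genotype label N{delta}). The members were chosen by these titles, and the changes are described over autosomal genes, of which the count table held 48182 among 52636 gene IDs. The remaining 3 libraries, of a line that the labels give Esrrb and Nanog (NanogKO:Esrrb:Nanog, 44JN, with the same genotype label as the Esrrb line), entered the shared fit. The medium of all lines contained serum and the cytokine LIF (leukaemia inhibitory factor), and the labels name no treatment. PECAM-positive, PDGFRA-negative cells were sorted, and ribosomal RNA was depleted from their total RNA. Since every group comes from 1 line, effects of the added gene cannot be told apart from those of the line it is in. The labels do not say that replicates were separate cultures, so p-values measure only the spread between these libraries, which may be technical.

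ESRRB is an orphan nuclear receptor of the estrogen-related receptor (ERR) family. It binds DNA at a short sequence known as the ERR element and is one of the transcription factors of the naive pluripotency network, together with KLF4, TFCP2L1, TBX3, NR5A2 and others. NANOG is known to activate Esrrb in ES cells, and ESRRB is known for sustaining self-renewal where NANOG is low or absent. The other members of its family, ESRRA and ESRRG, are best known as activators of mitochondrial and fatty acid oxidation genes in heart and muscle.

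Library totals ran from 21808120 to 32496267 counts over the 6 libraries. The first principal component of these libraries held 80.6% of the variance and separated the lines, and the second held 7.5%. Values are given as CPM, counts relative to the scaled library size, in the order of replicates 1, 2 and 3 of each line. For 8 ES cell markers the summed CPM ran from 3050 to 3150 without added Esrrb and from 3160 to 3400 with it. Nanog-null replicate 2 stood apart in summed markers of primitive endoderm (11.4, 35.2 and 19.1 CPM) and of stroma (6.02, 29.1 and 9.47 CPM). In the Esrrb line the primitive endoderm sums were 25.7, 61.1 and 50.4 CPM, and the stromal sums 9.3, 13.7 and 7.38 CPM. These sums mix directions. Thy1 (8.09, 12.5 and 6.34 CPM) gave most of the stromal sum there and rose, while the collagen genes Col1a1 and Col1a2 fell, as did Dab2 among the primitive endoderm markers. The trophoblast sums were 15, 23.2 and 19.2 CPM in the Nanog-null line and 12.3, 11.7 and 13.5 CPM in the Esrrb line. Among these markers Cdx2, Gata3 and Krt7 fell, and Eomes and Tfap2a were not called. Elf5, which defines trophoblast, was too low to be tested, at 0.0463, 0.116 and 0.1 CPM and then 0 in all Esrrb libraries. Hbb-bt, which defines blood, was at 0 in all 6. The part of other cell types in the results was not tested. In bulk samples such as these, fewer cells of a type and less RNA per cell cannot be told apart.

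Esrrb itself (ENSMUSG00000021255, chromosome 12, 86361117 to 86521628, plus strand) stood at 273, 253 and 303 CPM in the Nanog-null line, against 769, 949 and 692 CPM with the added copy. The groups did not overlap (log2 change 1.54 ± 0.11 SE, adjusted p = 7.37e-07). Coordinates are those of the mouse build mm10. Gene counts do not separate the added copy from the resident gene. Nanog (ENSMUSG00000012396, chromosome 6, 122707489 to 122714633, plus strand) still gave 14.3, 14.3 and 16 CPM in the Nanog-null line and rose to 29.7, 35.1 and 30.4 CPM (log2 change 1.09 ± 0.14 SE, adjusted p = 5.92e-05). The genotype label of the Esrrb line also holds iN, which the labels do not spell out and the Nanog-null label lacks. Gene counts do not show which copy of Nanog these reads came from. Pecam1, the sorted surface protein's gene, fell from 99.3, 93.5 and 110.5 CPM to 68.6, 52 and 65 CPM (log2 change -0.71 ± 0.10 SE, adjusted p = 0.000176). Pdgfra, the gene of the receptor the sort selected against, rose from 0.463, 4.43 and 1.97 CPM to 5.84, 11.4 and 14.1 CPM (log2 change 2.16 ± 0.52 SE, adjusted p = 0.00474).

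Of the 15585 autosomal genes that passed the filter on low counts, 7564 (48.5%) differed between the lines at an adjusted p below 0.05, and these are the genes called here. The calls were balanced, with 3811 genes higher in the Esrrb line (24.5%) and 3753 lower (24.1%), and the median log2 change over all tested genes was 0.01. The scaling of the libraries centres the changes near 0, so this balance is in part set by it. With library totals alone, 3465 genes were higher and 4092 lower, and the median was -0.025. Most changes were moderate, since the median log2 change was 0.57 among genes called higher and -0.73 among those called lower. More than 2-fold changes were called for 1115 genes upward and 1352 downward, and more than 8-fold changes for 197 and 150. Against a fold change of 1.5 in place of no change, 1079 genes were called higher and 1289 lower. Genes called higher took 25.5% of all autosomal CPM without added Esrrb and 34.1% with it. Genes called lower took 23.4% and 16.1%. Counts of list members called, given below, are to be read beside the 24.5% and 24.1% of all tested genes.

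**Figure D1:**
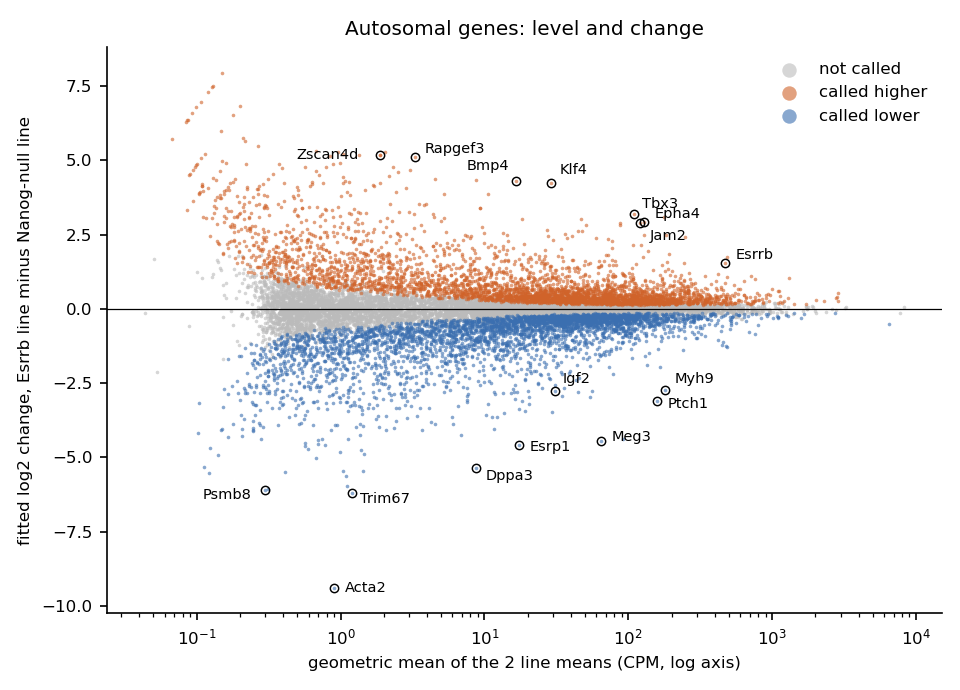
Each point is an autosomal gene, with its level on the x axis (geometric mean of the line means, CPM, log axis) and its fitted log2 change on the y axis, coloured by call. Changes of 4 log2 units or more are seen in both directions, Bmp4 and Klf4 above and Esrp1, Meg3 and Dppa3 below, at levels well over those of the scattered rare transcripts on the left.

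The protein-coding genes with the largest rises included signalling molecules and enzymes. Bmp4 (ENSMUSG00000021835, chromosome 14, 46383520 to 46390669, minus strand) encodes a secreted bone morphogenetic protein that works with LIF to hold ES cells undifferentiated. Its level went from 2.83, 4.12 and 4.15 CPM to 74.8, 85.8 and 63.2 CPM (log2 change 4.32 ± 0.15 SE, adjusted p = 4.21e-09). Every Esrrb library was above every Nanog-null library. Wnt6, a Wnt ligand, rose from 0.185, 0.539 and 0.569 CPM to 10.9, 14.5 and 11.9 CPM (log2 change 4.78 ± 0.26 SE, adjusted p = 1.3e-07). Rapgef3, which encodes the cyclic AMP sensor EPAC1, went from 0.278, 0.616 and 0.736 CPM to 17.3, 32.1 and 9.87 CPM (log2 change 5.12 ± 0.51 SE, adjusted p = 1e-05). Ankrd33b, an ankyrin repeat gene, moved from 1.11, 2.31 and 2.31 CPM to 32.4, 58.4 and 28.3 CPM (log2 change 4.34 ± 0.32 SE, adjusted p = 1.19e-06). Gsta3, a glutathione transferase, moved from 0.139, 0.347 and 0.769 CPM to 7.08, 11.4 and 6.88 CPM (log2 change 4.24 ± 0.45 SE, adjusted p = 1.76e-05). Among genes already well expressed, the receptor tyrosine kinase gene Epha4 rose from 48.4, 40.1 and 51.3 CPM to 346, 355 and 365 CPM (log2 change 2.93 ± 0.09 SE, adjusted p = 1.81e-09). Its replicates lay close together in both lines.

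Falls of similar size took genes that were clearly expressed in the Nanog-null line down to a few CPM or less. Esrp1 (ENSMUSG00000040728, chromosome 4, 11331933 to 11386783, minus strand), an RNA-binding regulator of epithelial splicing, went from 90.2, 87 and 78.8 CPM to 3.18, 2.52 and 5.07 CPM (log2 change -4.59 ± 0.23 SE, adjusted p = 7.24e-08). Trim67, a TRIM-family ubiquitin ligase gene, went from 8.06, 15.3 and 7.86 CPM to 0.242, 0.0944 and 0.0768 CPM (log2 change -6.19 ± 0.45 SE, adjusted p = 1.02e-06). Gfra1, the co-receptor of the growth factor GDNF, fell from 6.44, 9.94 and 5.55 CPM to 0.207, 0.346 and 0.231 CPM (log2 change -4.76 ± 0.32 SE, adjusted p = 5.38e-07). Pdzk1, a scaffold protein gene, fell from 6.72, 8.32 and 8 CPM to 0.104, 0.126 and 0.231 CPM (log2 change -5.63 ± 0.26 SE, adjusted p = 3.56e-08). None of these falls left any overlap between the lines. Ranked by CPM, the list of falls also held Myh9, non-muscle myosin heavy chain, which dropped from 414, 534 and 426 CPM to 76.8, 65.2 and 67.2 CPM (log2 change -2.72 ± 0.12 SE, adjusted p = 2.25e-08). Eef2, a translation elongation factor, was the largest fall in CPM, from 7143, 7960.0 and 7833 to 5722, 4894 and 5670.0 (log2 change -0.49 ± 0.08 SE, adjusted p = 0.000234). The largest rise in CPM was that of Trim28, the corepressor of KRAB zinc finger proteins, from 2328, 2416 and 2396 to 3389, 3608 and 3354 (log2 change 0.54 ± 0.07 SE, adjusted p = 0.000127).

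**Figure D2:**
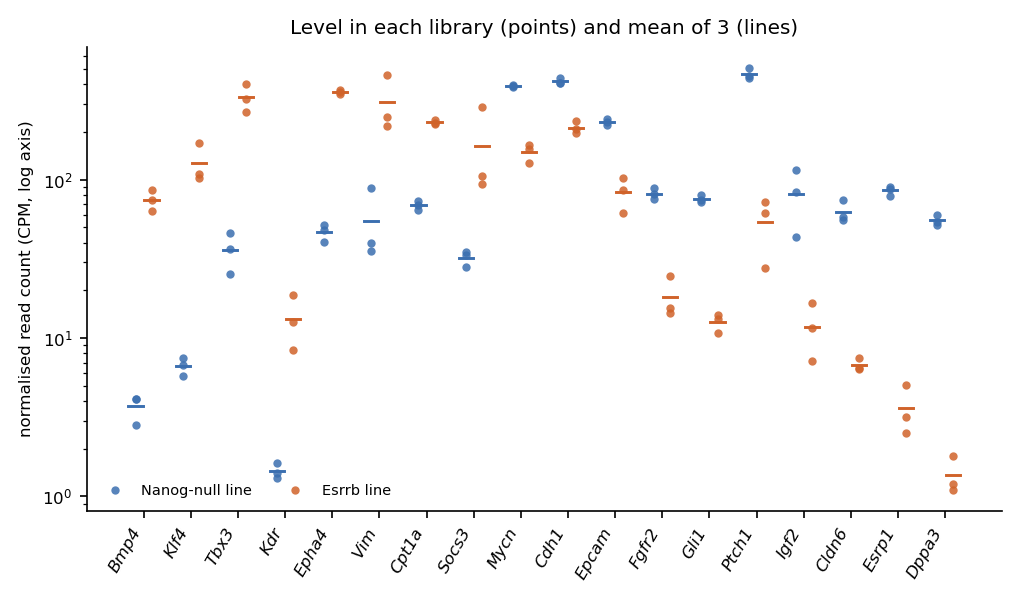
Points give the CPM (log axis) of 18 genes in each of the 3 libraries per line, and short lines give the mean of 3. For each of these genes, from Bmp4, which is at most 4.15 CPM in the Nanog-null line and at least 63.2 CPM in the Esrrb line, to Dppa3, the libraries of the lines do not overlap.

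Within the naive network, 7 of 10 transcription factors were higher in the Esrrb line and 1 was lower. These are 70% and 10%, beside 24.5% and 24.1% of all tested genes. Klf4 (ENSMUSG00000003032, chromosome 4, 55527143 to 55532466, minus strand) moved most, from 5.79, 7.43 and 6.72 CPM to 108, 171 and 103 CPM (log2 change 4.25 ± 0.19 SE, adjusted p = 3.42e-08). Tbx3 went from 25.4, 36.7 and 45.9 CPM to 323, 398 and 268 CPM (log2 change 3.19 ± 0.19 SE, adjusted p = 2.56e-07), and Tfcp2l1 from 274, 236 and 287 CPM to 833, 1039 and 789 CPM (log2 change 1.74 ± 0.11 SE, adjusted p = 3.16e-07). Klf5 and Nr5a2 rose by log2 changes of 1.13 and 1.09. Klf2, in contrast, was at 354, 381 and 413 CPM against 376, 352 and 378 CPM (log2 change -0.05 ± 0.08 SE, adjusted p = 0.602, not called). Tfap2c, a factor of naive and germ cells, was the member that fell, from 44.4, 51.3 and 55 CPM to 17.6, 34.2 and 13.4 CPM (log2 change -1.20 ± 0.26 SE, adjusted p = 0.00261).

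Other genes that mark naive cells split in direction, 7 of 17 higher and 4 lower. Jam2, a junctional adhesion molecule, rose from 49, 36.7 and 45.9 CPM to 321, 336 and 323 CPM (log2 change 2.90 ± 0.10 SE, adjusted p = 4.74e-09). Zfp57, which guards methylation at imprinted loci, rose from 105, 96.6 and 120.1 CPM to 568, 571 and 566 CPM (log2 change 2.41 ± 0.09 SE, adjusted p = 4.74e-09). Dppa3, also called Stella, a maternal factor that limits methylation by UHRF1, dropped from 54.1, 52 and 59.9 CPM to 1.8, 1.1 and 1.19 CPM (log2 change -5.34 ± 0.15 SE, adjusted p = 1.81e-09). Tdrd12, a piRNA pathway gene, fell by a log2 change of -1.52. Among 15 genes shared by naive and later states, 7 rose and 3 fell. L1td1, an RNA-binding protein gene, rose from 956, 887 and 903 CPM to 1812, 1871 and 1921 CPM (log2 change 1.03 ± 0.07 SE, adjusted p = 9.99e-07), and the Nodal co-receptor gene Tdgf1 from 294, 245 and 295 CPM to 598, 678 and 620.3 CPM (log2 change 1.19 ± 0.08 SE, adjusted p = 5.16e-07). Sox2 gave 735, 744 and 820.4 CPM against 763, 685 and 810.2 CPM (log2 change -0.03 ± 0.08 SE, adjusted p = 0.803, not called).

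The other receptors of the family did not follow Esrrb upward. Esrra fell from 26.4, 28.4 and 26.8 CPM to 21.2, 20 and 20.5 CPM (log2 change -0.40 ± 0.08 SE, adjusted p = 0.00114), and Esrrg was below the filter on low counts. Of 11 tested ERR receptors and coregulators, 3 rose and 3 fell. Each share, 27.3%, is close to the 24.5% and 24.1% of all tested genes. Without Nanog-null replicate 2, 2 rose and 2 fell. Ncoa3, a coactivator known to act with ESRRB in ES cells, went from 373, 334 and 366 CPM to 462, 484 and 487 CPM (log2 change 0.42 ± 0.06 SE, adjusted p = 0.00016). Nrip1, a corepressor of nuclear receptors, rose by 0.46 on the log2 scale.

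LIF acts through a receptor of LIFR and IL6ST, the kinase JAK1 and the factor STAT3, and SOCS proteins feed back on it. In this pathway list 12 of 20 genes rose and 3 fell, with a median log2 change of 0.67. The share that rose was 60%, beside 24.5% of all tested genes, and 11 rose without Nanog-null replicate 2. Klf4, Tfcp2l1 and Gbx2 count both here and in the naive network list. The receptor gene Lifr went from 163, 112 and 124 CPM to 231, 220.2 and 227 CPM (log2 change 0.77 ± 0.11 SE, adjusted p = 0.000162), and the kinase gene Jak1 from 62.6, 73 and 67.6 CPM to 118, 116 and 122 CPM (log2 change 0.81 ± 0.07 SE, adjusted p = 4.83e-06). Stat3 rose from 62, 59.1 and 57.8 CPM to 120.2, 174 and 116 CPM (log2 change 1.20 ± 0.12 SE, adjusted p = 1.44e-05). The feedback gene Socs3 rose from 27.9, 33.4 and 34.7 CPM to 106, 287 and 93.5 CPM (log2 change 2.34 ± 0.34 SE, adjusted p = 0.000184), and Bcl3, a nuclear cofactor of NF-kappaB, from 17.2, 15.6 and 17.9 CPM to 51.4, 109.6 and 42.2 CPM (log2 change 2.01 ± 0.29 SE, adjusted p = 0.000156). Esrrb replicate 2 was the highest library for Stat3, Socs3 and Bcl3. Pim1, a kinase gene that also responds to STAT3, went the other way, from 224, 276 and 273 CPM to 102, 100.4 and 97.9 CPM (log2 change -1.36 ± 0.08 SE, adjusted p = 2.86e-07), as did Socs2 (-0.66).

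FGF4 drives ERK signalling in ES cells and its feedback inhibitors include the SPRY and DUSP families. The FGF list split, 10 of 23 higher and 8 lower (43.5% and 34.8%, beside 24.5% and 24.1% of all tested genes). The ligand gene Fgf4 rose from 76.2, 59.4 and 76.5 CPM to 181, 125 and 174 CPM (log2 change 1.18 ± 0.14 SE, adjusted p = 3.7e-05). The receptor gene Fgfr2 fell from 88.2, 81.5 and 75.2 CPM to 15.4, 14.5 and 24.6 CPM (log2 change -2.17 ± 0.17 SE, adjusted p = 1.59e-06), whereas Fgfr1 had 94.1, 119 and 102 CPM and 98.2, 99.5 and 86.4 CPM (log2 change -0.15 ± 0.09 SE, adjusted p = 0.197, not called). The ERK-responsive factor gene Etv4 rose from 55.5, 46.9 and 51.1 CPM to 204, 283 and 199 CPM (log2 change 2.16 ± 0.14 SE, adjusted p = 5.57e-07). Feedback genes divided within families. Spry4 (1.21), Spry2 (0.74) and Dusp6 (0.97) rose on the log2 scale, while Spry1 (-1.34), Dusp5 (-1.41) and Dusp4 (-0.69) fell.

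Of 19 BMP pathway genes 6 rose, Bmp4 among them, and 7 fell. These are 31.6% and 36.8%, beside 24.5% and 24.1% of all tested genes. Id1, an inhibitor of differentiation and a direct BMP target, rose from 31, 32.6 and 29.5 CPM to 82.5, 95.8 and 84.1 CPM (log2 change 1.5 ± 0.10 SE, adjusted p = 4.72e-07), and Id3 from 7.6, 11.7 and 8.26 CPM to 21.2, 23.4 and 20.8 CPM (log2 change 1.24 ± 0.15 SE, adjusted p = 3.49e-05). Smad7, an inhibitory SMAD, rose by 1.49 on the log2 scale, but Smad6, the inhibitor closest to BMP receptors, fell from 4.4, 6.39 and 6.89 CPM to 0.76, 1.79 and 1.61 CPM (log2 change -2.09 ± 0.36 SE, adjusted p = 0.000591). The ligand genes Bmp7 (-0.97) and Bmp8b (-1.46) and the receptor genes Acvr1 (-0.48) and Bmpr1a (-0.26) fell.

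Nodal signals through activin receptors, the co-receptor TDGF1 and SMAD2 or SMAD3, and convertases cut its precursor. Here 4 of 17 genes rose and 7 fell. The share that rose, 23.5%, is close to the 24.5% of all tested genes, and 41.2% fell beside 24.1%. The convertase gene Pcsk6 rose from 14.6, 16.6 and 17.7 CPM to 143, 146 and 112 CPM (log2 change 3.03 ± 0.12 SE, adjusted p = 1.15e-08), while Furin, the other convertase gene of the list, fell from 35.6, 55 and 41.5 CPM to 24, 20.4 and 22.5 CPM (log2 change -0.98 ± 0.18 SE, adjusted p = 0.000838). Nodal itself rose by 0.45 on the log2 scale. The feedback inhibitor gene Lefty1 fell from 132, 184 and 138 CPM to 28.2, 9.44 and 20.7 CPM (log2 change -2.97 ± 0.28 SE, adjusted p = 8.13e-06). Smad3 dropped from 20, 28.8 and 21.1 CPM to 5.91, 6.2 and 5.61 CPM (log2 change -1.98 ± 0.19 SE, adjusted p = 8.38e-06).

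Wnt pathway genes were mostly lower in the Esrrb line, 15 of 24 against 5 higher, with a median of -0.56. These are 62.5% and 20.8%, beside 24.1% and 24.5% of all tested genes. Among ligands, Wnt7b fell from 4.22, 6.78 and 5.92 CPM to 0.242, 0.503 and 0.346 CPM (log2 change -3.93 ± 0.30 SE, adjusted p = 1.59e-06), opposite to Wnt6. Of the Frizzled receptors, Fzd2 fell from 36.4, 58.4 and 42 CPM to 13.6, 12 and 12 CPM (log2 change -1.86 ± 0.15 SE, adjusted p = 2.69e-06) and Fzd7 by a log2 change of -0.65, but Fzd5 rose from 71.5, 61.3 and 69.5 CPM to 179, 233 and 166 CPM (log2 change 1.51 ± 0.12 SE, adjusted p = 1.58e-06). The repressor gene Tcf7l1 fell from 124, 145 and 136 CPM to 90.4, 57.2 and 84.4 CPM (log2 change -0.81 ± 0.14 SE, adjusted p = 0.00065). Axin2, a feedback target of beta-catenin, rose from 9.69, 10 and 9.53 CPM to 29.5, 35.4 and 28.9 CPM (log2 change 1.68 ± 0.11 SE, adjusted p = 5.86e-07). Notum, a secreted Wnt inhibitor, rose by 1.74, and its neighbouring antisense transcript Notumos by 2.12. Reads of a gene and its antisense partner cannot be told apart here, because strand use in the counting is not given. With a minimum of 5 CPM in 3 libraries, 9 genes of the Wnt list were called lower.

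Hedgehog genes gave some of the largest falls among abundant transcripts. Ptch1 (ENSMUSG00000021466, chromosome 13, 63508328 to 63573598, minus strand), the Hedgehog receptor and itself a target of the pathway, went from 505, 451 and 438 CPM to 61.8, 27.8 and 72.2 CPM (log2 change -3.11 ± 0.28 SE, adjusted p = 4.99e-06). Gli1, the other classical target, went from 74.7, 79.3 and 71.8 CPM to 13.1, 13.9 and 10.7 CPM (log2 change -2.58 ± 0.10 SE, adjusted p = 1.28e-08). Smo, the signal transducer, fell from 71.7, 88 and 75.6 CPM to 40, 34.7 and 34.9 CPM (log2 change -1.10 ± 0.10 SE, adjusted p = 5.04e-06), and Gli3 by a log2 change of -1.51, while Gli2 had 16, 21.2 and 17.5 CPM and 21.6, 29.4 and 18.2 CPM (log2 change 0.34 ± 0.17 SE, adjusted p = 0.111, not called). Shh was below the filter on low counts. Ihh, another Hedgehog ligand gene, was called lower, but it lost its call when certain single libraries were left out. Notch members split, with the ligand gene Dll1 (-1.97) and the receptor genes Notch2 (-0.96) and Notch3 (-0.70) lower and the ligand gene Jag1 (0.96), the receptor gene Notch4 (0.85) and the target gene Hes1 (0.93) higher. In the Hippo branch Amotl1, an angiomotin that holds YAP outside the nucleus, fell from 50.4, 70.6 and 56.5 CPM to 12.4, 12.2 and 13.9 CPM (log2 change -2.20 ± 0.14 SE, adjusted p = 4.72e-07). Yap1 itself had 243, 242 and 236 CPM and 235, 252 and 233 CPM (adjusted p = 0.969, not called). Over these pathways 18 of 28 genes fell and 5 rose (64.3% and 17.9%, beside 24.1% and 24.5% of all tested genes).

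Genes of the formative and primed epiblast, the states that follow naive pluripotency, were lower for 13 of 18 members and higher for 3, with a median of -0.86. These are 72.2% and 16.7%, beside 24.1% and 24.5% of all tested genes. Fgf5 fell from 2.36, 3.97 and 1.81 CPM to 0.242, 0.0315 and 0.0768 CPM (log2 change -4.50 ± 0.58 SE, adjusted p = 7.41e-05), and Pou3f1, a POU factor of the primed epiblast, from 60.2, 75 and 57.3 CPM to 15.7, 10 and 12.3 CPM (log2 change -2.34 ± 0.20 SE, adjusted p = 2.97e-06). Sox11 (-1.52), Sall2 (-1.47) and Lin28b (-1.12) fell as well. Otx2, a formative factor, was an exception, from 66.4, 63.7 and 78.7 CPM to 141, 92.7 and 137 CPM (log2 change 0.82 ± 0.21 SE, adjusted p = 0.00659), as was the methyltransferase gene Dnmt3a, from 181, 181 and 181 CPM to 345, 325 and 275 CPM (log2 change 0.80 ± 0.09 SE, adjusted p = 2.16e-05). Dnmt3b fell from 641, 576 and 550.5 CPM to 505, 428 and 452 CPM (log2 change -0.35 ± 0.08 SE, adjusted p = 0.00234). Without Nanog-null replicate 2, 11 members were called lower.

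The balance of calls differed between lineage lists, and Nanog-null replicate 2 was the highest Nanog-null library for many of their genes. Primitive endoderm genes rose for 6 and fell for 4 of 19. These shares, 31.6% and 21.1%, are near the 24.5% and 24.1% of all tested genes. In this lineage 9 rose without Nanog-null replicate 2. Gata6, its early factor, went from 1.39, 6.09 and 3.51 CPM to 13.5, 39 and 22.9 CPM (log2 change 2.76 ± 0.50 SE, adjusted p = 0.000761), and Lama1, a laminin of its basement membrane, from 28.1, 64 and 38.5 CPM to 103, 183 and 122 CPM (log2 change 1.64 ± 0.26 SE, adjusted p = 0.000342). The endocytic receptor gene Lrp2 fell from 392, 354 and 242 CPM to 83.7, 81.2 and 89.1 CPM (log2 change -1.96 ± 0.20 SE, adjusted p = 1.2e-05). Kdr, a receptor of early mesoderm, rose from 1.62, 1.31 and 1.41 CPM to 12.7, 18.6 and 8.38 CPM (log2 change 3.20 ± 0.34 SE, adjusted p = 1.58e-05). Kdr made up nearly all of the mesoderm marker sum in the Esrrb line (14, 21 and 10 CPM, against 2.78, 2.85 and 2.74 CPM), and the other tested markers of that sum, T and Mixl1, were not called. Cdx1, a caudal homeobox gene, rose from 0.649, 0.963 and 0.803 CPM to 3.49, 8.46 and 2.69 CPM (log2 change 2.60 ± 0.43 SE, adjusted p = 0.000447). These were the 2 rises among 8 tested primitive streak and mesoderm genes, a share of 25% beside 24.5% of all tested genes, and 1 fell (2 without Nanog-null replicate 1).

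None of 14 trophoblast and simple keratin genes rose and 8 fell, a count of 5 without Nanog-null replicate 2 or without Esrrb replicate 1. The 8 falls are a share of 57.1%, beside 24.1% of all tested genes. Without Esrrb replicate 3, 1 member was called higher, Tead4 (adjusted p = 0.0366). The simple keratins led these falls. Krt18 was at 24.4, 102 and 44.4 CPM and then 7.91, 7.71 and 6.22 CPM (log2 change -2.97 ± 0.41 SE, adjusted p = 0.000109), and Krt8, its partner in the filament, at 18.1, 74.2 and 27.6 CPM and 5.46, 9.25 and 5.53 CPM (log2 change -2.56 ± 0.44 SE, adjusted p = 0.000568). The transcription factor gene Eomes had 7.14, 8.32 and 9.2 CPM and 8.5, 7.27 and 7.15 CPM (log2 change -0.11 ± 0.13 SE, adjusted p = 0.506, not called). Among 14 fibroblast and contractile genes 11 fell and 2 rose (78.6% and 14.3%, beside 24.1% and 24.5% of all tested genes). Acta2, the actin of smooth muscle, was at 7.69, 54.3 and 16.1 CPM without added Esrrb. All Esrrb libraries together held 3 counts against 2056, a ratio of 768 with a 95% counting interval of 262 to 3730. Vim, vimentin, rose instead, from 35.5, 88.2 and 39.6 CPM to 247, 456 and 219 CPM (log2 change 2.5 ± 0.36 SE, adjusted p = 0.000147). The fibroblast collagen gene Col1a2 fell from 2.41, 16.8 and 4.42 CPM to 0.311, 0.22 and 0.269 CPM (log2 change -4.87 ± 0.72 SE, adjusted p = 0.000197), and Col1a1 from 1.25, 7.55 and 2.04 CPM to 0.76, 0.944 and 0.692 CPM (log2 change -2.17 ± 0.56 SE, adjusted p = 0.00697), with Nanog-null replicate 2 far above the other libraries for both. Col3a1, Lum, Dcn and Postn, which also define fibroblasts, were below the filter on low counts. With a minimum of 5 CPM in 3 libraries, 4 genes of the trophoblast list, 6 of the fibroblast list and 2 of the neural list were called lower. In the main fit 44.4% of the neural list was called lower and 11.1% higher. In the neural list 4 of 9 fell, Pax6 from 9.87, 11 and 11.7 CPM to 3.42, 3.81 and 5.34 CPM (log2 change -1.38 ± 0.17 SE, adjusted p = 4.41e-05), and Stmn2, a neuronal stathmin, rose from 107, 103 and 95.3 CPM to 350.3, 352 and 383 CPM (log2 change 1.83 ± 0.09 SE, adjusted p = 4.77e-08).

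Several epithelial adhesion genes fell, as Esrp1 did, but so did other adhesion genes. In the adhesion list 13 of 20 genes fell and 5 rose, with a median log2 change of -0.68. These are 65% and 25%, beside 24.1% and 24.5% of all tested genes. The falls included Pecam1 (-0.71), Cdh2 (N-cadherin) and Cd44, which are not particular to epithelia. Cdh2 and Cd44 lost their calls when certain single libraries were left out. The tight junction genes Cldn6 and Cldn7 went from 55.2, 74.2 and 58.2 CPM to 7.46, 6.48 and 6.34 CPM (log2 change -3.21 ± 0.13 SE, adjusted p = 1.24e-08) and from 18.2, 26 and 17.5 CPM to 2.18, 1.82 and 2.34 CPM (log2 change -3.28 ± 0.19 SE, adjusted p = 2.27e-07). Cdh1, E-cadherin, fell from 409.6, 436 and 408 CPM to 234, 196 and 207 CPM (log2 change -0.97 ± 0.07 SE, adjusted p = 1.15e-06), and Epcam from 230.0, 242 and 220.3 CPM to 85.9, 61.1 and 103 CPM (log2 change -1.47 ± 0.16 SE, adjusted p = 1.96e-05). Cdh3, P-cadherin, fell by 1.84, and Rab25, a small GTPase of epithelial vesicle recycling, had a change of -3.32 on the log2 scale. Cd9, a tetraspanin gene, rose by 0.61. Basement membrane genes split, with the nidogen gene Nid1 higher (1.21) and the laminin genes Lamb1 (-1.35) and Lama5 (-0.56) lower. Collagen genes were lower for 16 of 31 and higher for 5, and potassium channel genes lower for 17 of 49 and higher for 5. Kcnk1, a background potassium channel, fell from 41.9, 45.8 and 42.1 CPM to 3.94, 3.08 and 3.46 CPM (log2 change -3.63 ± 0.12 SE, adjusted p = 2.88e-09).

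Antigen presentation and interferon-induced genes fell for 12 of 17 members and rose for 0, with a median of -0.89. Without Esrrb replicate 3, 1 member was called higher, Ifitm2 with an adjusted p of 0.0293. The class I genes H2-K1 and B2m went from 40.2, 57.6 and 46 CPM to 15.2, 12.7 and 13.9 CPM (log2 change -1.78 ± 0.13 SE, adjusted p = 8.68e-07) and from 30.2, 36.6 and 29.1 CPM to 12.8, 9.97 and 14.2 CPM (log2 change -1.38 ± 0.20 SE, adjusted p = 0.000143). Reads of H2-K1 and H2-D1 can be shared between these similar copies. Irf1, an interferon regulatory factor, fell from 60.6, 71.5 and 61.6 CPM to 28.9, 20.3 and 24.5 CPM (log2 change -1.39 ± 0.13 SE, adjusted p = 7.67e-06). Tap1, the peptide transporter, fell by 1.56. Psmb8, a subunit found in the immunoproteasome, was at 2.13, 3.89 and 2.04 CPM without added Esrrb. The Esrrb libraries together held 3 counts against 208, a ratio of 77.7 with a 95% counting interval of 26.2 to 380. The guanylate-binding protein genes Gbp2 and Gbp2b, also interferon-induced, changed by -5.97 and -5.47 on the log2 scale.

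Proteasome genes as a family were higher, 25 of 47 against 4 lower, a set that also counts the immunoproteasome subunits. These are 53.2% and 8.51%, beside 24.5% and 24.1% of all tested genes. Psmd4, a ubiquitin receptor of the proteasome, rose from 204, 210.0 and 213 CPM to 372, 395 and 366 CPM (log2 change 0.85 ± 0.06 SE, adjusted p = 5.08e-07). Psmb4, a subunit of the core, rose from 267, 275 and 265 CPM to 400.3, 428 and 384 CPM (log2 change 0.58 ± 0.07 SE, adjusted p = 2.34e-05). Psme1, an activator subunit induced by interferon, fell from 31.4, 35 and 34.1 CPM to 25.6, 24.8 and 22.8 CPM (log2 change -0.46 ± 0.08 SE, adjusted p = 0.000898).

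Nuclear genes of the respiratory chain and ATP synthase were called higher for 23 of 35 members and lower for 0, against 24.5% and 24.1% of all tested genes. The changes were small and even, with a median log2 change of 0.25, and 1 gene was called against a fold change of 1.5. Ndufa9, a complex I subunit, went from 79.3, 74.8 and 76.4 CPM to 136, 138 and 129 CPM (log2 change 0.80 ± 0.06 SE, adjusted p = 1.14e-06). Cox5a, of cytochrome c oxidase, went from 107, 103 and 103 CPM to 165, 175 and 164 CPM (log2 change 0.69 ± 0.06 SE, adjusted p = 2.49e-06), and Atp5g1, of the ATP synthase ring, from 68.2, 67.1 and 68.5 CPM to 119.7, 125 and 102 CPM (log2 change 0.77 ± 0.10 SE, adjusted p = 8.43e-05). Mitochondrial ribosomal protein genes rose for 38 of 77 and fell for 3, while cytosolic ribosomal protein genes rose for 5 of 75 and fell for 17, the latter a share of 22.7% that is close to the 24.1% of all tested genes. Mrpl21 rose from 56.1, 56.6 and 58.1 CPM to 95.2, 98.5 and 92 CPM (log2 change 0.74 ± 0.06 SE, adjusted p = 2.11e-06).

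Fatty acid oxidation genes rose for 12 of 20 and fell for 4. Of these, 3 rises and none of the falls were called against a fold change of 1.5, and 2 falls were called in fits of the 6 libraries alone, with the block on replicate number, with no low-count filter, and without any 1 of the libraries except Nanog-null replicate 1. Cpt1a, the enzyme that commits fatty acids to entry into mitochondria, rose from 68.7, 64.5 and 73.4 CPM to 229, 239 and 225 CPM (log2 change 1.74 ± 0.08 SE, adjusted p = 4.83e-08). Acaa2, the last enzyme of the cycle, rose from 19.8, 19.8 and 20.5 CPM to 64.7, 67.8 and 50.6 CPM (log2 change 1.61 ± 0.14 SE, adjusted p = 3.24e-06). Slc25a20, the acylcarnitine carrier of the inner membrane, rose from 24.9, 24.9 and 26.9 CPM to 43.8, 63.6 and 39.3 CPM (log2 change 0.94 ± 0.14 SE, adjusted p = 0.000266). Acadm, a dehydrogenase for medium-chain fatty acids, rose by 0.67, and Cpt2, the partner of Cpt1a on the inner membrane, had a change of -0.49 on the log2 scale. Slc27a2, a fatty acid transporter and activating enzyme outside this list, fell from 99.1, 93.9 and 78.9 CPM to 14.8, 13.1 and 14.7 CPM (log2 change -2.67 ± 0.13 SE, adjusted p = 4.17e-08).

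**Figure D3:**
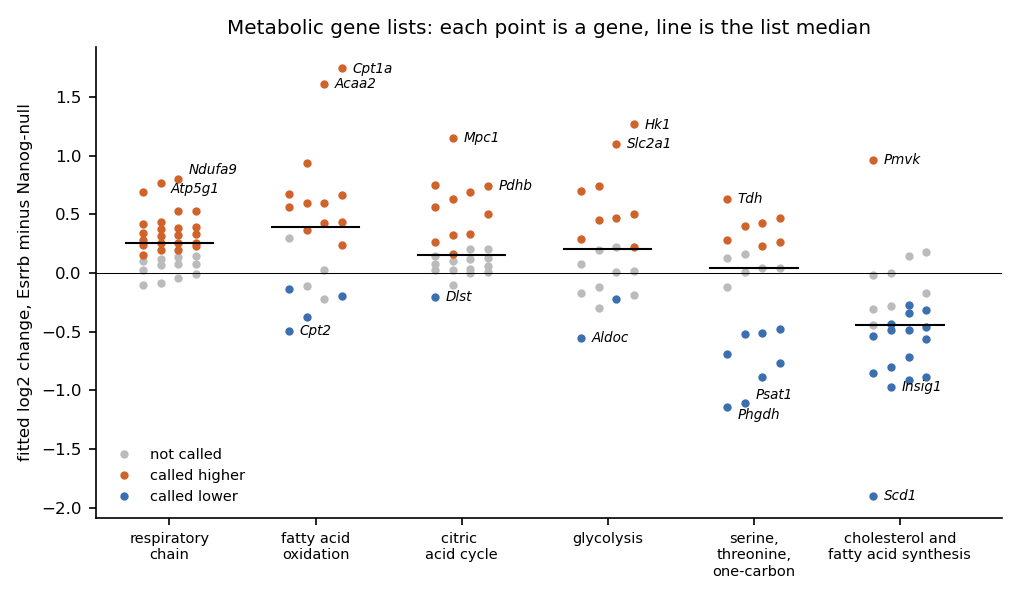
Each point is a tested gene of a metabolic list, placed by its fitted log2 change (y axis) and coloured by call, and the black line is the list's median. The respiratory chain genes sit in a narrow band above 0, fatty acid oxidation is led by Cpt1a and Acaa2, and cholesterol and fatty acid synthesis genes lie mostly below 0, with Scd1 lowest.

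Pyruvate entry and the citric acid cycle gave 11 of 26 genes higher and 1 lower, of which 2 rises were called against a fold change of 1.5. Pdhb, of pyruvate dehydrogenase, rose from 198, 180.3 and 192 CPM to 323, 307 and 324 CPM (log2 change 0.74 ± 0.06 SE, adjusted p = 1.86e-06). Mpc1, of the mitochondrial pyruvate carrier, rose from 3.29, 2.43 and 3.01 CPM to 5.84, 7.27 and 6.22 CPM (log2 change 1.15 ± 0.19 SE, adjusted p = 0.000428). In glucose uptake and glycolysis 9 of 20 genes rose. Slc2a1, the glucose transporter GLUT1, went from 405, 566 and 494 CPM to 1068, 1118 and 958 CPM (log2 change 1.10 ± 0.11 SE, adjusted p = 1.03e-05), and the hexokinase gene Hk1 from 42.9, 49.4 and 52 CPM to 127, 132 and 87.6 CPM (log2 change 1.27 ± 0.15 SE, adjusted p = 2.98e-05). The 2 falls of that list were not stable, with 4 called without Esrrb replicate 1, 5 with no low-count filter, and 1 without Esrrb replicate 3 or Nanog-null replicate 3.

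Cholesterol and fatty acid synthesis genes, most of them targets of the SREBP factors, went the other way, with 16 of 25 lower and 1 higher. These are 64% and 4%, beside 24.1% and 24.5% of all tested genes. Scd1, the desaturase that makes monounsaturated fatty acids, fell from 76.7, 87.3 and 90.1 CPM to 31.9, 18.2 and 17.9 CPM (log2 change -1.90 ± 0.19 SE, adjusted p = 9.63e-06). Srebf2, which encodes SREBP2, fell from 355, 413 and 386 CPM to 226, 226 and 186 CPM (log2 change -0.85 ± 0.09 SE, adjusted p = 1.13e-05). Pmvk, phosphomevalonate kinase, was the exception, from 18.6, 20.9 and 22 CPM to 39.9, 53.3 and 26.5 CPM (log2 change 0.96 ± 0.21 SE, adjusted p = 0.00294). Against a fold change of 1.5, 6 genes of this list were called lower and none higher.

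In the list of serine, threonine and one-carbon enzymes 7 of 21 genes rose and 8 fell. These are 33.3% and 38.1%, beside 24.5% and 24.1% of all tested genes. The serine synthesis genes Phgdh and Psat1 fell from 165, 172 and 162 CPM to 83.4, 58 and 85.2 CPM (log2 change -1.14 ± 0.13 SE, adjusted p = 3.28e-05) and from 698, 640.2 and 662 CPM to 339.9, 186 and 403 CPM (log2 change -1.11 ± 0.22 SE, adjusted p = 0.00154), and Gldc, of glycine cleavage, from 904, 857 and 933 CPM to 574, 442 and 569.5 CPM (log2 change -0.77 ± 0.10 SE, adjusted p = 6.29e-05). Tdh, the threonine dehydrogenase of mouse ES cells, rose from 246, 225 and 249 CPM to 371, 381 and 363 CPM (log2 change 0.63 ± 0.06 SE, adjusted p = 5.26e-06). Sars, seryl-tRNA synthetase, fell from 594, 589.8 and 626 CPM to 301, 184 and 388 CPM (log2 change -1.05 ± 0.21 SE, adjusted p = 0.00177). Esrrb replicate 2 was the lowest library for Phgdh, Psat1, Gldc and Sars.

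Iron and redox genes were divided, 6 of 21 higher and 8 lower (28.6% and 38.1%, beside 24.5% and 24.1% of all tested genes). Slc40a1, ferroportin, which exports iron, fell from 30.6, 34.4 and 31.3 CPM to 4.01, 3.12 and 3.23 CPM (log2 change -3.22 ± 0.12 SE, adjusted p = 6.79e-09). Tfrc, the transferrin receptor that takes iron up, rose by 0.64. Gpx1, glutathione peroxidase, rose from 38.1, 39.4 and 37.3 CPM to 101, 209 and 98.3 CPM (log2 change 1.83 ± 0.29 SE, adjusted p = 0.000289), with replicate 2 far above the other Esrrb libraries. Prdx6, a peroxiredoxin, fell from 691, 689 and 658 CPM to 277, 320.4 and 289 CPM (log2 change -1.20 ± 0.08 SE, adjusted p = 7.67e-07). In the lysosome list 9 of 25 rose and 6 fell (3 without Esrrb replicate 1). The shares with all libraries were 36% and 24%, the latter close to the 24.1% of all tested genes. Tfeb, a master regulator of lysosomal genes, rose from 6.35, 5.62 and 6.32 CPM to 19.3, 31 and 16.3 CPM (log2 change 1.87 ± 0.23 SE, adjusted p = 4.55e-05).

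Imprinted genes, expressed from a single parental allele, fell more often than they rose. In the Dlk1-Dio3 cluster 5 of 7 genes fell, with Meg3 going from 297, 312 and 294 CPM to 14.2, 16 and 11.4 CPM (log2 change -4.43 ± 0.15 SE, adjusted p = 4.21e-09) and Rian from 471, 398 and 383 CPM to 20.5, 21.4 and 18.4 CPM (log2 change -4.37 ± 0.14 SE, adjusted p = 3.15e-09). Both are maternally expressed long RNAs. Dlk1, which is expressed from the paternal allele, fell from 5.33, 6.93 and 5.22 CPM to 0.518, 1.26 and 0.653 CPM (log2 change -2.82 ± 0.29 SE, adjusted p = 1.18e-05). Elsewhere 17 of 31 fell and 5 rose. Igf2 and H19, reciprocally imprinted neighbours, both fell, from 43.1, 115 and 83.1 CPM to 7.12, 16.7 and 11.5 CPM (log2 change -2.77 ± 0.34 SE, adjusted p = 4.68e-05) and from 20.6, 27.6 and 34.8 CPM to 4.77, 7.77 and 5.3 CPM (log2 change -2.22 ± 0.21 SE, adjusted p = 6.96e-06). Phlda2 (-1.63), Mest (-1.61) and Peg3 (-0.94) fell too, while Zdbf2 (0.43) and Zrsr1 (0.50) rose.

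Among chromatin genes, Tet1, which oxidises methylated cytosine, rose from 622, 345 and 409.7 CPM to 899.5, 912 and 838 CPM (log2 change 0.95 ± 0.16 SE, adjusted p = 0.000559), and Eed, a core subunit of Polycomb complex PRC2, from 242, 208 and 244 CPM to 458, 561 and 478 CPM (log2 change 1.11 ± 0.09 SE, adjusted p = 2.82e-06). Polycomb and histone modifier genes rose for 9 of 25 and fell for 5 (36% and 20%, beside 24.5% and 24.1% of all tested genes). In the Myc network Mycn fell from 392, 383 and 396 CPM to 155, 127 and 166 CPM (log2 change -1.38 ± 0.13 SE, adjusted p = 5.45e-06), whereas Myc rose from 66.1, 60.4 and 77 CPM to 94.2, 105 and 98 CPM (log2 change 0.54 ± 0.15 SE, adjusted p = 0.0101). Cell cycle genes rose for 9 of 25, or 5 without Nanog-null replicate 2, and fell for 3. The shares with all libraries were 36% and 12%, beside the same 24.5% and 24.1%. The cyclin genes moved in opposite directions. Ccnd3 went from 101, 108 and 111 CPM to 309.9, 418 and 234 CPM (log2 change 1.59 ± 0.17 SE, adjusted p = 2.03e-05) and Ccnd1 from 38.7, 32.5 and 30.9 CPM to 12, 11 and 12.4 CPM (log2 change -1.53 ± 0.31 SE, adjusted p = 0.00179). E2f2, an E2F transcription factor, rose from 10.2, 10.3 and 12.1 CPM to 68, 84.9 and 51.4 CPM (log2 change 2.65 ± 0.18 SE, adjusted p = 6.28e-07). Targets of p53 rose for 13 of 17 (76.5%, beside 24.5% of all tested genes) and fell for 0, with a median of 0.52. Ccng1, cyclin G1, led them, from 139, 103 and 116 CPM to 261, 296 and 351 CPM (log2 change 1.34 ± 0.12 SE, adjusted p = 4.06e-06), while Zmat3 had 172, 138 and 147 CPM and 155, 138 and 178 CPM (log2 change 0.04 ± 0.10 SE, adjusted p = 0.749, not called). Against a fold change of 1.5, 5 of these targets were called.

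The 2-cell-like state is an uncommon state of ES cells in culture, marked by transcripts of the 2-cell embryo. Its genes rose for 17 of 17 tested members, with a median log2 change of 4.16. Levels remained low. Zscan4d went from 0.371, 0.231 and 0.335 CPM to 6.81, 13.2 and 14.1 CPM (log2 change 5.18 ± 0.50 SE, adjusted p = 8.86e-06) and Zfp352 from 0.232, 0.193 and 0.0335 CPM to 2.31, 5.29 and 4.57 CPM (log2 change 4.78 ± 0.55 SE, adjusted p = 2.93e-05). Members this low in the Nanog-null line, such as Zscan4d and Zfp352, passed the filter on low counts through the lines with Esrrb. A fall could hardly be called for them, so the count of 17 of 17 is in part set by the filter. With a minimum of 5 CPM in 3 libraries, which has the same limit, 10 members were tested and called. Many are near-identical copies (the Zscan4 and Usp17l genes), so how reads divide among them is uncertain. Several of them lie side by side. Among 1124 windows of 1 Mb with at least 5 tested genes, 4 had every gene higher and 1 had every gene lower. The window at 11000001 to 12000000 of chromosome 7 held 8 genes, all Zscan4 copies, pseudogenes or the predicted gene Gm45551, with log2 changes from 4.45 to 6.59. At 120000001 to 121000000 of chromosome 13, 5 genes including Tcstv3 changed by 3.54 to 4.36. At 88000001 to 89000000 of chromosome 12, 7 genes changed by 0.44 to 7.95. Of these, Gm5662 went from 0.371, 0.308 and 0.268 CPM to 6.88, 14.5 and 12.6 CPM (log2 change 5.17 ± 0.45 SE, adjusted p = 4.12e-06). Gm2056 had 98 counts with added Esrrb and 0 without, at least 29.2-fold higher against a floor of 3 counts over the group. The fourth, at 84000001 to 85000000 of chromosome 16, held Jam2, Mrpl39 and Gabpa. It also held Atp5j, which lost its call when certain single libraries were left out. The window of falls, at 32000001 to 33000000 of chromosome 12, held Nampt, the enzyme of NAD salvage, which went from 342, 310.0 and 332 CPM to 221, 204 and 234 CPM (log2 change -0.58 ± 0.06 SE, adjusted p = 2.21e-05), and Prkar2b (-1.53). Ccdc71l and Sypl, also in the window of falls, lost their calls when certain single libraries were left out.

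The balance of calls differed between gene types. Unprocessed pseudogenes, copies made by duplication, were higher for 30 of 62 and lower for 0, with a median of 0.63. Many of those called higher stayed under 1 CPM in the Esrrb line, such as Gm5542 (mean 0 against 0.813 CPM). Several lie close together, as do Gm9113, Gm9121 and Gm5542 on chromosome 3, and reads may be shared between such copies. The examples given below are among the most abundant, and Zscan4a also counts in the 2-cell-like list. For the unprocessed pseudogenes and for each list above with 0 genes called in 1 direction by edgeR, DESeq2 also called 0. At an unadjusted p below 0.05 the count was 1 for falling pseudogenes and 0 for each such list. DESeq2 used the same counts and the same filtered genes, so it gives no independent support. Pseudogenes near 0 CPM in the Nanog-null line passed the filter through the lines with Esrrb, and a fall could hardly be called for them. The pseudogene H2-M6-ps went from 5.42, 3.74 and 6.12 CPM to 23.9, 19.8 and 21.7 CPM (log2 change 2.09 ± 0.15 SE, adjusted p = 1.14e-06), and Zscan4a, annotated as such a pseudogene, from 0.417, 0.231 and 0.335 CPM to 7.91, 14.1 and 16.2 CPM (log2 change 5.28 ± 0.45 SE, adjusted p = 3.42e-06). Antisense genes were higher for 22.3% and lower for 8.23% of 328. Protein-coding genes were higher for 25.5% and lower for 26.5% of 13353. Among long non-coding RNAs, C78283 rose from 2.55, 2.7 and 3.28 CPM to 28.2, 31.9 and 31 CPM (log2 change 3.40 ± 0.11 SE, adjusted p = 2.69e-09). Miat fell from 8.9, 8.9 and 6.59 CPM to 1.83, 2.3 and 1.5 CPM (log2 change -2.10 ± 0.30 SE, adjusted p = 0.000158). Germline and meiosis genes were higher for 6 and lower for 3 of 18 (33.3% and 16.7%, beside 24.5% and 24.1% of all tested genes). Mov10l1, a piRNA helicase gene, rose from 4.87, 4.89 and 4.75 CPM to 13.2, 17.3 and 10.7 CPM (log2 change 1.51 ± 0.16 SE, adjusted p = 1.94e-05), and Dazl, an RNA-binding protein of germ cells, from 5.38, 5.01 and 5.45 CPM to 11.7, 16 and 12.8 CPM (log2 change 1.35 ± 0.14 SE, adjusted p = 1.1e-05). Stra8, which starts meiosis under retinoic acid, fell from 11.9, 20.3 and 20.6 CPM to 0.76, 1.76 and 1.04 CPM (log2 change -3.87 ± 0.29 SE, adjusted p = 1.28e-06). In the retinoic acid list 7 of 15 fell and 4 rose, with 4 falls without Nanog-null replicate 2 or without Esrrb replicate 1.

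**Figure D4:**
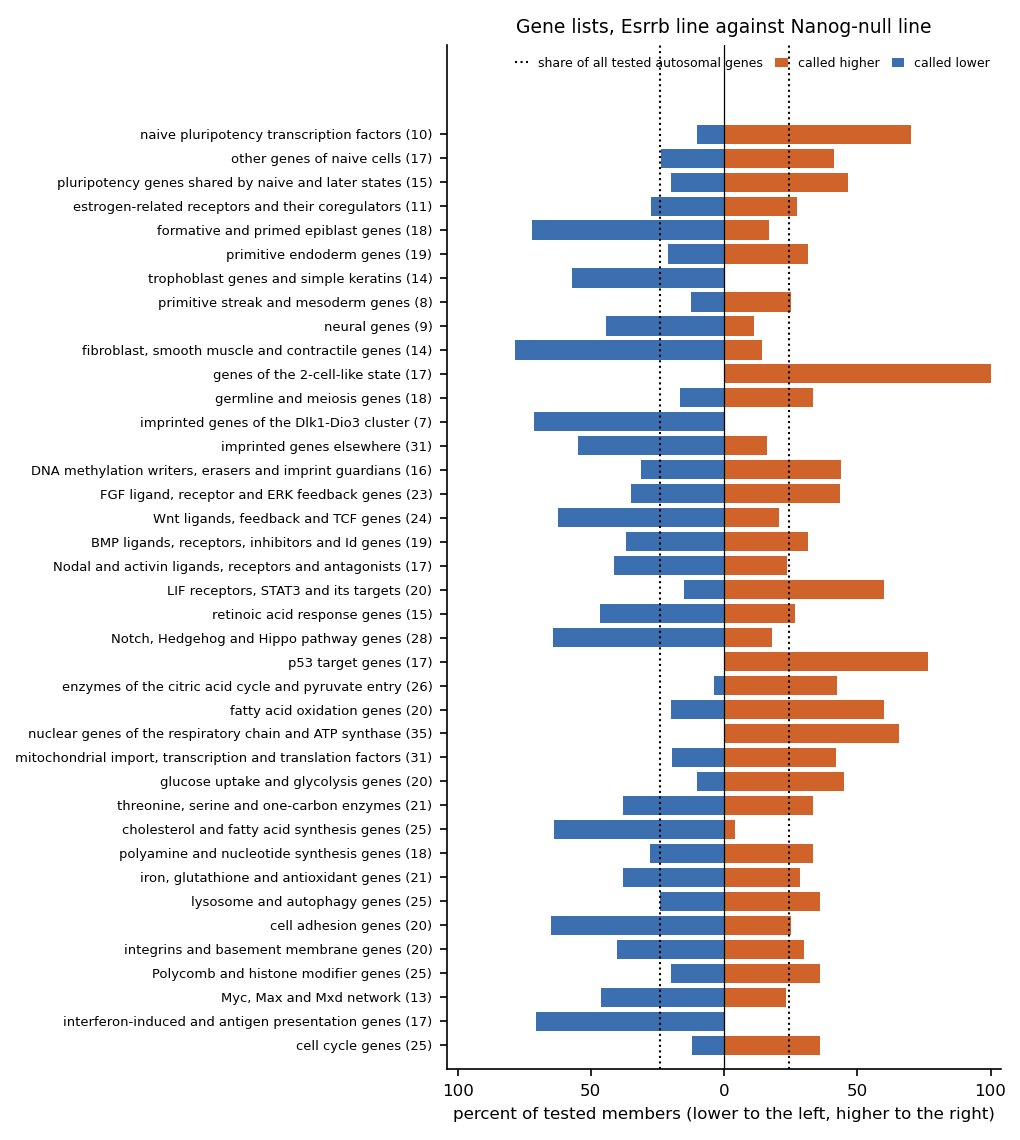
Bars give the percent of each list's tested members (number in brackets) called higher to the right and lower to the left, and dotted lines mark the shares of all tested autosomal genes, 24.5% and 24.1%. The 2-cell-like, p53 target and respiratory chain lists have no bar to the left, and the interferon, trophoblast and Dlk1-Dio3 lists none to the right.

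Calls in both directions were spread over all autosomes. Median log2 changes by chromosome lay between -0.02 on chromosome 10 and 0.056 on chromosome 4. The share called higher ran from 20.8% on chromosome 19 to 28.4% on chromosome 4, and the share called lower from 19.4% on chromosome 13 to 27.5% on chromosome 14. The balance did vary with level. Of genes with at least 100 CPM, 32.6% were higher and 17.9% lower, while of genes between 5 and 20 CPM 23% were higher and 29.8% lower.

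**Figure D5:**
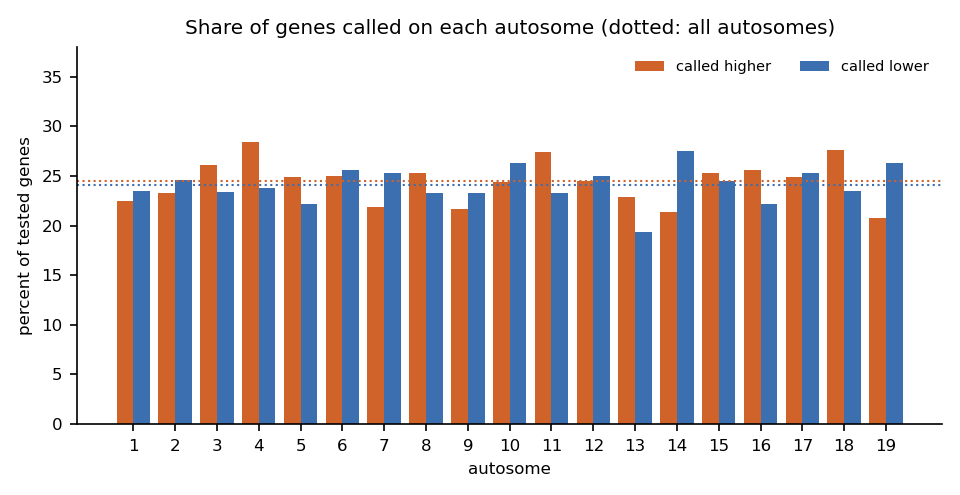
Bars give the percent of tested genes on each autosome called higher and lower in the Esrrb line, with dotted lines at the shares over all autosomes. Every autosome has both kinds of call, and the shares called higher stay between 20.8% and 28.4%.

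The ERR element was looked for in the promoters of these genes, since it is the sequence that ESRRB is known to bind. RefSeq windows (GRCm38.p6) from 250 bases before to 50 after the start site were matched by symbol to 10975 tested genes and searched on both strands for TCAAGGTCA and for its core AAGGTCA, which every TCAAGGTCA also holds. The long form was present for 0.289% of genes called higher, 0.248% of those called lower and 0.372% of those not called, against 0.417% of all autosomal windows. The core was present for 4.26%, 3.75% and 4.2%, against 4.69% of all windows. The shares of the long form rest on 8, 7 and 20 genes. For changes of more than 2-fold, the core was present for 5.24% of genes called higher and 4.08% of those called lower. Its share of all tested genes matched was 4.1%. The long form was present for 0.299% and 0.105%, which are 2 genes and 1 gene. Differences between these shares were not tested, and a match is a description of the letters only. Of the called genes with the long form before the start site, the sequences shown are of the 3 that changed more than 2-fold and of Atp5g3, the respiratory chain member among them. Capitals mark the match, which in reverse reads TGACCTTGA.
Atp5g3, higher, chr2:73911344-73911404, minus strand: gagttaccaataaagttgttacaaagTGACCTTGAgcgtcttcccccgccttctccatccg
Atp13a4, higher, chr16:29545039-29545099, minus strand: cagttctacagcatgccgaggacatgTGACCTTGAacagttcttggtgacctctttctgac
Fam131c, higher, chr4:141367942-141367984, plus strand: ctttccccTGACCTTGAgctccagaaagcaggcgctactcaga
Ccl27a, lower, chr4:41774383-41774426, minus strand: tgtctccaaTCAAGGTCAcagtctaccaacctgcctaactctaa

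The match begins 52 bases before the start site in Atp5g3, and 209, 242 and 241 bases before it in the others. Atp5g3, of the ATP synthase ring, went from 245, 233 and 227 CPM to 351, 367 and 296 CPM (log2 change 0.53 ± 0.09 SE, adjusted p = 0.000498). Atp13a4, a cation-transporting ATPase, went from 0.324, 0.616 and 0.602 CPM to 1.42, 1.2 and 1.46 CPM (log2 change 1.36 ± 0.29 SE, adjusted p = 0.00207), and Fam131c from 2.04, 2.31 and 2.24 CPM to 4.91, 5.82 and 4.15 CPM (log2 change 1.17 ± 0.19 SE, adjusted p = 0.000412). Ccl27a, a chemokine gene with close copies among which reads may be split, fell from 3.94, 4.28 and 3.88 CPM to 1.9, 1.35 and 1.69 CPM (log2 change -1.29 ± 0.19 SE, adjusted p = 0.000205). The core alone was present before a RefSeq start site of Ccnd3, which rose, and of Stra8 and Meg3, which fell. These are shown to set a rise beside large falls. The Meg3 stretch lies inside the gene as annotated here (109541001 to 109571726). It therefore belongs to an internal start site and not to the promoter at the annotated start.
Ccnd3, higher, chr17:47504927-47504987, plus strand: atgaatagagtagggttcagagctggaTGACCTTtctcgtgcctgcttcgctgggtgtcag
Stra8, lower, chr6:34920726-34920786, plus strand: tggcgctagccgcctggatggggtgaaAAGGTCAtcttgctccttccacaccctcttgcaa
Meg3, lower, chr12:109545230-109545290, plus strand: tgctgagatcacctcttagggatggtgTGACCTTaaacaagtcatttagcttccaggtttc

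The line with added Esrrb and Nanog gives values to set beside these, with no test made here. Bmp4 was 3.7 ± 0.755 CPM (mean ± SD, n = 3) without either, 74.6 ± 11.3 CPM with Esrrb and 76.3 ± 5.32 CPM with Esrrb and Nanog. Ptch1 was 465 ± 35.9, 53.9 ± 23.2 and 29.3 ± 6.53 CPM in the same order. Esrp1 was 85.3 ± 5.93, 3.59 ± 1.33 and 3.44 ± 1.24 CPM, and Cpt1a 68.9 ± 4.46, 231 ± 7.11 and 201 ± 22.7 CPM. Other genes had other orders, with Dnmt3a at 181 ± 0.276, 315 ± 36.2 and 153 ± 14.6 CPM and Otx2 at 69.6 ± 8.01, 123 ± 26.6 and 39.5 ± 13.9 CPM. These genes were chosen after their values were seen, and the comparisons share the Nanog-null libraries.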

How the data were processed

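The deposited table held raw read counts per gene, in whole numbers, for 9 RNA-seq libraries used here (3 lines with 3 libraries each), and 6 other columns were not used. Per the submitters' processing notes the tools were bcl2fastq 2.19.1 and STAR 2.5.3a with the build mm10; no annotation, counting tool or use of strand is given in the sources used here. Of 52636 gene IDs, 52489 were named from GENCODE M21, which also gives the coordinates printed (mm10). The counts were fitted in 1 model over all 9 libraries with edgeR 4.0.16 (R 4.3.3): filterByExpr, TMM factors and the quasi-likelihood test, with line as the only term and Benjamini-Hochberg adjustment over 16198 tested genes. Genes with an adjusted p below 0.05 are called, and the 15585 autosomal ones are described, with Y-linked genes left aside. CPM were computed from library size times TMM factor with no pseudocount, and SE is the absolute log2 change over the square root of F. The script was tested on simulated data with 200 changed genes. An exact permutation test of 3 libraries against 3 cannot go below p = 0.1, so none was made for single genes. Intervals on count ratios cover counting error only. Promoter windows came from RefSeq (GRCm38.p6).

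The members and the 39 gene lists were chosen with earlier results of these data known. Genes were named by rule: the altered and sorted genes, the 12 largest changes in each direction at 5 CPM or more, the 8 largest CPM differences, the called list members with the smallest adjusted p in each direction (or the most abundant uncalled member), members of name families, whole windows and long non-coding RNAs. Other list members, and the promoter examples, were chosen after their values were seen. Alternatives were DESeq2 1.42.0, other scalings and filters, a replicate block, the 6 libraries alone, autosomal genes alone, leaving out each library, and testing for more than a 1.5-fold change.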

Additional observations from a re-analysis of the deposited data

How the results depend on the processing

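The counts of 3811 genes higher and 3753 lower stayed within 1.5 times of these values under every alternative run except a test for more than a 1.5-fold change, which called 1079 higher and 1289 lower. Leaving out 1 library at a time gave 3012 to 3706 higher and 3300 to 3748 lower. DESeq2 called 3631 and 3717, scaling by library totals alone 3465 and 4092, no low-count filter 3955 and 4094, and a minimum of 5 CPM in 3 libraries 2739 and 2946. Same-numbered libraries of the lines did not deviate together (correlations 0.026, 0.105 and 0), so the numbers give no pairing, and a fit with the replicate number as a block called 3862 higher and 3845 lower. Of 648 genes checked one by one, none reversed under any alternative. That test ended the call of 329 of them, DESeq2 of 10 and library totals of 12, and leaving out 1 library ended the call of 92 in at least 1 case. Of 78 list counts, 52 moved by more than 1.5 times in that test and 8 with the minimum of 5 CPM, where fewer members are tested. No other alternative moved more than 5. Library totals limit the rarest genes: changes from levels under 1 CPM rest on few counts per library.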
